A study of Mus musculus with 14 samples.

Results

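The genes described are 43 that encode the enzymes of fatty acid oxidation and targets or regulators of the nuclear receptor PPAR alpha. They were chosen by name, and all 43 were measured in both deposited tables, of 16821 and 16095 genes. They comprise 20 genes of mitochondrial oxidation, 12 of peroxisomal oxidation, 1 of ketone body metabolism, 3 regulators and 7 other PPAR alpha targets.

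The samples were mouse liver tumours, hepatocellular carcinomas driven by MYC, whose RNA was sequenced to compare tumours with and without activation of the transcription factor NRF2. Genes were targeted with Cas9 and a guide RNA, and every group, controls included, shares MYC and carries 1 guide. The first table holds 4 tumours with a guide against GFP (sgGFP, the control), 3 with a guide against Cul3 (sgCul3) and 3 with a guide against Keap1 (sgKeap1). The second holds 2 tumours with a guide against the part of the NRF2 gene that encodes the ETGE motif (sgNrf2) and a control pair, A and B, which the labels give as repeat libraries from sgGFP tumours 2 and 4. KEAP1 holds NRF2 by its ETGE motif and hands it to the CUL3 ubiquitin ligase for destruction, so each of these 3 guides is a way to release NRF2. The strain, sex and age of the mice, the promoter of MYC and the way the constructs reached the liver were not given in the sources used here. Nor is it said whether the tumours of a group came from separate animals, so p-values measure the spread between these tumours only. The sgCul3 and sgKeap1 comparisons share the sgGFP tumours, and the sgNrf2 controls repeat a pair of them, so the 3 guides are set side by side and are not independent of each other.

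In a hepatocyte, long-chain fatty acids are activated to acyl-CoA and carried into mitochondria on carnitine, with CPT1A as the gate. There they are shortened by repeated rounds of dehydrogenation, hydration, a further dehydrogenation and thiolysis, and the electrons pass through the electron transfer flavoprotein to the respiratory chain. Peroxisomes shorten very long chains and dicarboxylic acids by a parallel set of enzymes. PPAR alpha, which binds DNA with RXR, induces many genes of both routes during fasting, together with secreted factors and lipid droplet proteins.

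All values below are deposited counts scaled by library, with the 1 that the authors added to the first table taken away, and are called scaled reads. Reads on genes came to between 6333025 and 12008223 per library in the first table and between 17819333 and 20848578 in the second. Changes are log2 fold changes ± SE from limma, and a gene is called when its Benjamini-Hochberg adjusted p over all genes tested is under 0.05. The labels describe the cells as hepatocytes, and all 15 hepatocyte markers examined were detected in every group. Nqo1, a classical NRF2 target, checked the guides: it read 17.5, 22.2, 58.5 and 110.1 in the sgGFP tumours and between 1779.6 and 7498 in the sgCul3 and sgKeap1 tumours, and it read 6663 and 4929.8 in sgNrf2 against 58.2 and 282 in controls A and B. Cul3 was lower in every sgCul3 tumour than in any sgGFP tumour (-1.70 ± 0.39, adjusted p = 0.0509, not called), and Keap1 was lower in sgKeap1 (-0.77 ± 0.21, adjusted p = 0.0485, called). Cul3 also lay below the lowest sgGFP value, 935, in every sgKeap1 tumour (848, 596 and 895). Its lower level was thus not particular to sgCul3. Keap1 in sgCul3, at 823 to 1149.5, lay above the highest sgGFP value, 721. Nfe2l2, which encodes NRF2, was not called in sgNrf2 (-0.05 ± 0.22, adjusted p = 0.893), and its read count does not show whether the motif was edited.

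Members of the list were more often lower than higher in all 3 guides. In sgCul3, 5 of 43 members fell (Cpt1a, Ppara, Creb3l3, Angptl4 and Plin5) and 0 rose, where 0.851% of all 13045 genes tested were called lower and 1.35% higher. In sgKeap1, 5 fell (Cpt1a, Acaa2, Etfdh, Acad11 and Angptl4) and 2 rose (Eci1 and Vnn1), against a background of 3.37% lower and 4.45% higher. In sgNrf2, 8 fell (Acot2, Acot1, Pdk4, Etfb, Plin5, Angptl4, Eci2 and Acadl) and 0 rose, against 2.51% lower and 1.9% higher of 13989 genes. Angptl4 was the 1 member called in all 3. With the tumour number as a block, which pairs sgGFP with sgCul3 tumours, 6 fell in sgCul3, with Angptl4 no longer among them and Acadm and Etfdh added.

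The members' median log2 fold change was -0.65 in sgCul3, with 36 of 43 below 0, beside a median of 0.01 over all genes tested. It was -0.27 in sgKeap1, with 27 below 0, beside -0.01, and -0.40 in sgNrf2, with 31 below 0, beside 0.04. In bulk tumours, fewer hepatocytes and less of these RNAs per hepatocyte cannot be told apart. Summed over the 15 hepatocyte markers, sgCul3 tumours ranged from 199558 to 442109 scaled reads and sgGFP tumours from 209058 to 483059.8, which overlap. In the second table the same sum was 471139 and 559231 in sgNrf2 against 701695 and 1070893 in the controls, so it was lower in sgNrf2. Its markers did not all move together. Afp was lower, at 33756 and 43338 in sgNrf2 against 72139 and 83592 in the controls. Alb overlapped, at 152595 and 197882 against 180835 and 393121, and Hnf4a was higher, at 12706 and 11988 against 5883 and 11226. The part of this sum in the members' shift was not tested.

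Counted without any test, the groups did not overlap for 11 members lower and 0 higher in sgCul3, where this held for 7.54% and 8.71% of all genes. For sgKeap1 it held for 11 members lower and 2 higher, against 12.6% and 13.1%. For sgNrf2, with 2 tumours on each side, it held for 21 lower and 3 higher, against 30.7% and 33.3%. Taking the mean of both sgCul3 and sgKeap1 effects, 10 members fell and 1 rose, against 3.19% and 4.37% of all genes, and the 6 guide tumours lay wholly below the 4 sgGFP tumours for 7 members and wholly above for 0, against 4.1% and 5.13%. The 10 were Cpt1a, Acaa2, Etfdh, Acad11, Eci2, Ppara, Creb3l3, Angptl4, Pdk4 and Plin5, and Vnn1 rose. The median over all 43 members was -0.46 beside 0.00 over all genes.

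These counts rest on single libraries. The number that fell in sgCul3 was 0 without sgGFP tumour 2, sgGFP tumour 3 or sgCul3 tumour 1, 1 without sgGFP 4 or sgKeap1 3, 2 without sgCul3 2 and 3 without sgKeap1 1, while 1 member rose without sgCul3 3. In sgKeap1 it was 0 without sgKeap1 3, 1 without sgGFP 2 or sgGFP 3, and 3 without sgGFP 1, sgKeap1 1 or sgKeap1 2, and the number that rose was 5 without sgKeap1 1 and 1 without sgGFP 1, 2 or 3, sgCul3 1, sgKeap1 2 or sgKeap1 3. For the mean of both, 3 fell without sgGFP 3 and 6 without sgGFP 2. In sgNrf2, 0 fell without sgNrf2 B, 2 without sgNrf2 A and 5 without control B, while 12 fell and 2 rose without control A. Scaling libraries to equal totals gave 7 members lower and 1 higher in sgKeap1, and it moved the calls over all genes in sgNrf2 from 351 lower and 266 higher to 362 and 874, with 8 members lower under both. That scaling shifted the median of all genes by -0.20 in sgKeap1 and 0.30 in sgNrf2, and relative to all genes the members' median was then -0.26 and -0.44. Where 1 library was left in an arm, it was assumed to vary like the other groups. The zeros are those of limma at the adjusted threshold: at an unadjusted p under 0.05, 1 member was higher in sgCul3 and 2 in sgNrf2, edgeR called 0 in both, and DESeq2 called 1 in each.

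**Figure D1:**
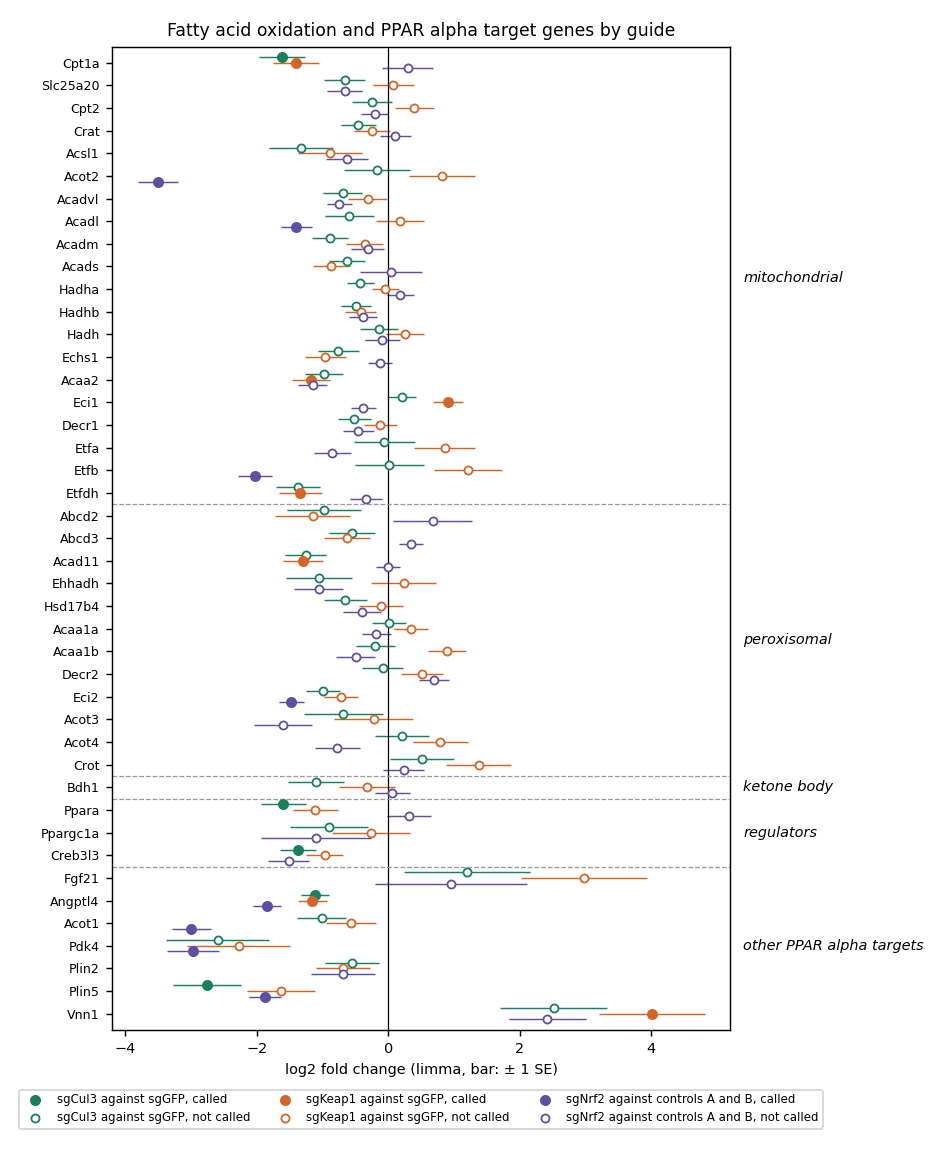
Log2 fold change (x axis, limma, bars ± 1 SE) of the 43 genes (y axis, by compartment) in sgCul3, sgKeap1 and sgNrf2, each against its controls, with called genes filled. Most points lie left of 0, and the filled points at the far left are Acot2, Acot1 and Pdk4 in sgNrf2 and Plin5 in sgCul3.

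**Figure D2:**
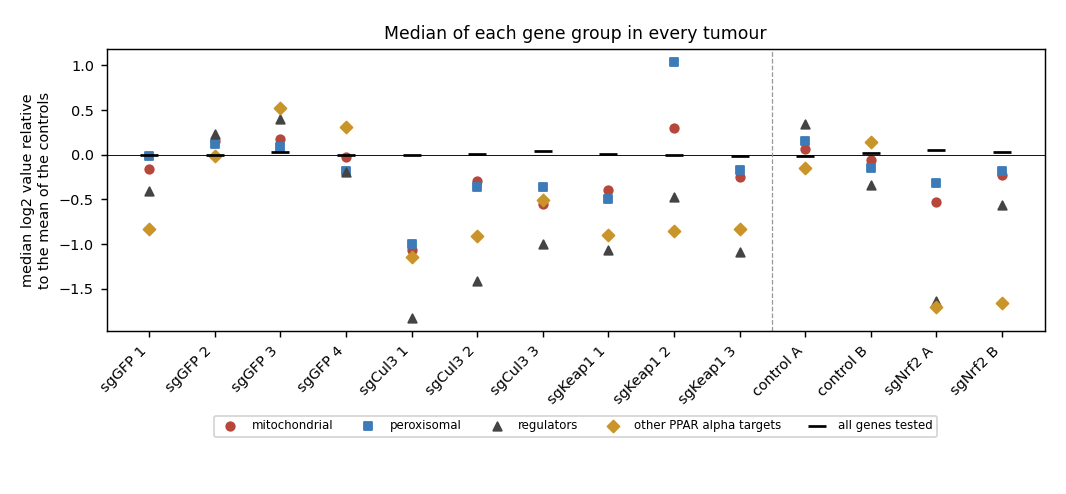
Median over the genes of each compartment but the ketone gene (y axis, log2 value relative to the mean of the controls of the same table) in each tumour (x axis), with the median of all genes tested as a dash. Peroxisomal genes stand at 1.03 in sgKeap1 tumour 2, and the lowest value of the regulators is -1.83, in sgCul3 tumour 1.

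Per kb of exon, Acaa2, the last thiolase of the mitochondrial spiral, was the most abundant member in sgGFP tumours at 5382 ± 1310.4 scaled reads per kb (SD, n = 4), followed by both subunits of the electron transfer flavoprotein, Etfa at 2499.7 ± 651 and Etfb at 1747 ± 1061. Their spreads overlap, so the order of Etfa and Etfb is not resolved. Among the regulators, Creb3l3 stood at 996 ± 210 per kb, while Ppara stood at 46.4 ± 12.1 and Ppargc1a at 38.8 ± 27.7, a pair whose spreads overlap. Fgf21 at 7.81 ± 8.10 and Vnn1 at 7.06 ± 4.54 per kb were the least abundant. Within the 4 sgGFP tumours the highest value was a median of 1.9 times the lowest over the 42 members with no value of 0, of which 8 differed by over 3-fold. Fgf21, at 0 in sgGFP tumour 1, has no such ratio.

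**Figure D3:**
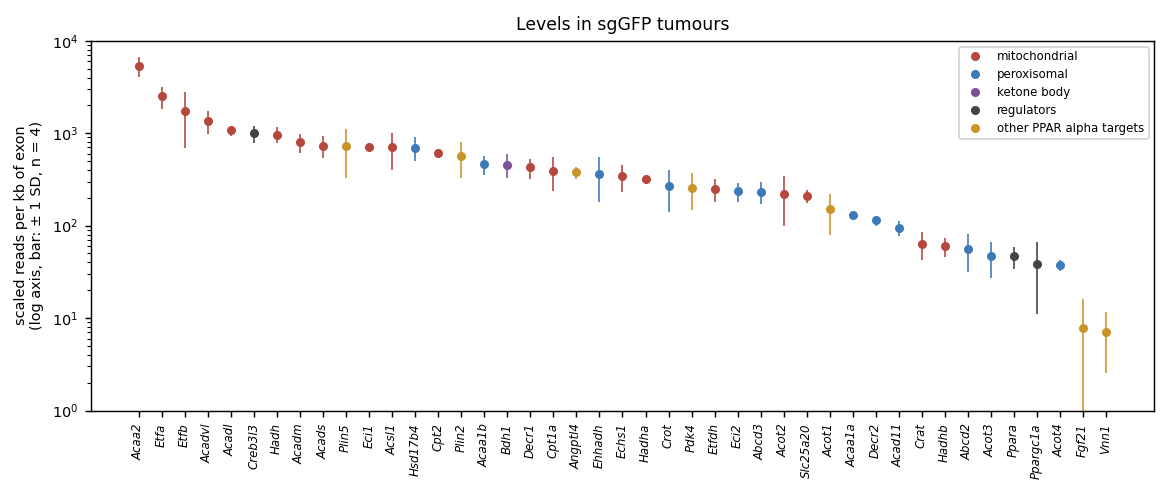
Level of each gene in the 4 sgGFP tumours (y axis, scaled reads per kb of exon, log axis, mean ± 1 SD), ordered from highest to lowest and coloured by compartment. Mitochondrial enzymes fill the top of the order and Fgf21 and Vnn1 its end; the lower bar of Fgf21 runs below the axis because its SD exceeds its mean.

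Of the regulators, Ppara and Creb3l3 fell in sgCul3 and in the mean of both guides. Ppara (chr15:85734983-85802819), the receptor itself, stood at 130.2, 204, 229 and 149 in sgGFP 1 to 4, 31.8, 63.8 and 86.0 in sgCul3 1 to 3 and 81.7, 75.0 and 80.8 in sgKeap1 1 to 3. All 6 guide tumours were below the lowest sgGFP tumour. The change was -1.60 ± 0.34 (adjusted p = 0.0423) in sgCul3, -1.11 ± 0.34 (adjusted p = 0.0682) in sgKeap1, which missed the threshold, and -1.35 ± 0.29 (adjusted p = 0.019) for their mean. The sgCul3 call was lost without any 1 of sgGFP 2, 3 or 4, sgCul3 1 or 2, or sgKeap1 1 or 3 (adjusted p = 0.0618 to 0.161), with equal totals, with edgeR and with the 2 groups alone, and that for the mean without any 1 of sgGFP 2 or 3 (adjusted p = 0.0575 to 0.0759). Ppara in the second table stood at 377 and 227 in the controls, A then B, and 396 and 334 in sgNrf2 A and B. Those groups overlap, and the difference in sgNrf2 was 0.31 ± 0.34 (adjusted p = 0.558).

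Creb3l3 (chr10:81084324-81098874), a liver transcription factor that acts with PPAR alpha in the fasting response, stood at 2766, 3948, 2703 and 2594 in sgGFP 1 to 4, 832, 1618 and 1096 in sgCul3 1 to 3 and 1286, 2136 and 1248 in sgKeap1 1 to 3. Every guide tumour was again below every sgGFP tumour. The change was -1.38 ± 0.28 (adjusted p = 0.0337) in sgCul3, -0.97 ± 0.28 (adjusted p = 0.0558) in sgKeap1 and -1.17 ± 0.24 (adjusted p = 0.0143) for the mean. The call in sgCul3 was lost without any 1 of sgGFP 1, 2, 3 or 4, sgCul3 1 or 3, or sgKeap1 3 (adjusted p = 0.0533 to 0.162) and with edgeR, whereas that for the mean held in every fit that left out 1 library. In the other table Creb3l3 stood at 8117 and 5068 in the controls, A then B, and 1904 and 2639.7 in sgNrf2 A and B. Both sgNrf2 tumours were below both controls, but the difference missed the threshold at -1.52 ± 0.31 (adjusted p = 0.0619).

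Ppargc1a (chr5:51454250-51567726), a coactivator of mitochondrial genes, stood at 63.4, 139.6, 443 and 377 in sgGFP 1 to 4, 111, 70.9 and 142 in sgCul3 1 to 3 and 109, 227 and 176 in sgKeap1 1 to 3. The controls alone spanned from 63.4 to 443, and the guide tumours lay within that span. The second table held 189.8 and 924 in the controls, A then B, and 134 and 283 in sgNrf2 A and B, again with overlap. Ppargc1a was called in none of the comparisons, with -0.91 ± 0.59 (adjusted p = 0.469) in sgCul3, -0.27 ± 0.59 (adjusted p = 0.794) in sgKeap1 and -1.10 ± 0.84 (adjusted p = 0.41) in sgNrf2.

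Angptl4 (chr17:33773750-33781830), a secreted inhibitor of lipoprotein lipase, was the member that fell in every guide. It stood at 1211, 1112, 1422 and 1578 in sgGFP 1 to 4, 460.1, 702 and 693 in sgCul3 1 to 3 and 541, 732 and 521 in sgKeap1 1 to 3. The highest guide tumour, at 732, was below the lowest sgGFP tumour, at 1112. The change was -1.12 ± 0.22 (adjusted p = 0.0294) in sgCul3, -1.16 ± 0.22 (adjusted p = 0.0119) in sgKeap1 and -1.14 ± 0.19 (adjusted p = 0.00551) for the mean of both. In sgNrf2 the values were 2544 and 3122 in the controls, A then B, and 868 and 707 in sgNrf2 A and B, with no overlap, a change of -1.85 ± 0.22 (adjusted p = 0.0342). The sgCul3 call was lost without any 1 of sgGFP 2, 3 or 4, sgCul3 1 or 2, or sgKeap1 3 (adjusted p = 0.0501 to 0.14), the sgKeap1 call without sgKeap1 3 (adjusted p = 0.0641) and the sgNrf2 call without any 1 of sgNrf2 A or B (adjusted p = 0.107 to 0.138); the call for the mean held in every such fit. With the tumour number as a block, which pairs sgGFP with sgCul3 tumours, Angptl4 was no longer called in sgCul3 (-1.03 ± 0.22, adjusted p = 0.0606), while Acadm (-1.07 ± 0.21, adjusted p = 0.0474) and Etfdh (-1.57 ± 0.24, adjusted p = 0.0203) were.

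The other secreted target, Fgf21, the fasting hormone of the liver, is named after its values were seen. It stood at 0, 3.84, 7.97 and 17.9 in sgGFP 1 to 4, 20.7, 11.5 and 10.9 in sgCul3 1 to 3 and 165, 8.11 and 93.8 in sgKeap1 1 to 3. It was low in all groups but for sgKeap1 tumours 1 and 3, while sgKeap1 tumour 2 was within the range of sgGFP. The second table held 4.31 and 24.0 in the controls, A then B, and 8.91 and 48.9 in sgNrf2 A and B. Fgf21 was not called in sgKeap1 (2.97 ± 0.96, adjusted p = 0.0771), sgCul3 (1.19 ± 0.96, adjusted p = 0.572) or sgNrf2 (0.95 ± 1.16, adjusted p = 0.607).

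Plin5 (chr17:56111601-56117596), which coats lipid droplets and tethers them to mitochondria, stood at 489, 1285, 2406 and 1869.6 in sgGFP 1 to 4, 134, 304 and 168 in sgCul3 1 to 3 and 534, 245 and 554 in sgKeap1 1 to 3. The sgCul3 tumours were all below the lowest sgGFP tumour, and the sgKeap1 tumours overlapped it. The change was -2.76 ± 0.51 (adjusted p = 0.0242) in sgCul3, -1.63 ± 0.51 (adjusted p = 0.0726) in sgKeap1 and -2.19 ± 0.43 (adjusted p = 0.0136) for the mean. The second table held Plin5 at 2689 and 3237 in the controls, A then B, and 688 and 936 in sgNrf2 A and B, apart, with a change of -1.88 ± 0.24 (adjusted p = 0.0363) in sgNrf2. The sgCul3 call was lost without any 1 of sgGFP 2, 3 or 4, or sgCul3 1 or 3 (adjusted p = 0.0514 to 0.115), that for the mean without sgGFP 3 (adjusted p = 0.0516) and that in sgNrf2 without any 1 of control B, or sgNrf2 A or B (adjusted p = 0.0516 to 0.166). Plin2, the more widely expressed droplet protein, was called in no comparison.

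Pdk4 (chr6:5483351-5496309), the kinase that shuts pyruvate dehydrogenase when fat is burned, ranged widely. It stood at 399, 858, 1336 and 1029 in sgGFP 1 to 4, 47.0, 99.3 and 522 in sgCul3 1 to 3 and 346, 58.8 and 235 in sgKeap1 1 to 3. The value in sgCul3 tumour 3 lay within the sgGFP range, whereas the 3 sgKeap1 tumours lay below it. The change was -2.60 ± 0.79 (adjusted p = 0.123) in sgCul3 and -2.28 ± 0.79 (adjusted p = 0.0902) in sgKeap1, neither called, and -2.44 ± 0.66 (adjusted p = 0.0494) for their mean, called. In sgNrf2 Pdk4 was at 1734 and 2583 in the controls, A then B, and 371 and 194 in sgNrf2 A and B, with no overlap and a fall of -2.97 ± 0.40 (adjusted p = 0.0393). The call for the mean was lost without any 1 of sgGFP 2, 3 or 4, sgCul3 1 or 2, or sgKeap1 2 or 3 (adjusted p = 0.0796 to 0.149) and in the fits with edgeR or a minimum mean of 50, and the sgNrf2 call without any 1 of control B, or sgNrf2 B (adjusted p = 0.0576 to 0.0859).

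Vnn1 (chr10:23894688-23905343), a pantetheinase that releases cysteamine and a known PPAR alpha target, went the other way. It stood at 7.42, 9.21, 31.0 and 20.6 in sgGFP 1 to 4, 196, 167 and 24.2 in sgCul3 1 to 3 and 149.6, 837 and 152 in sgKeap1 1 to 3. The sgKeap1 tumours were all above the highest sgGFP tumour, with tumour 2 far above the other two, and sgCul3 tumour 3 lay within the sgGFP range. The rise was 4.01 ± 0.81 (adjusted p = 0.0158) in sgKeap1 and 3.26 ± 0.68 (adjusted p = 0.0172) for the mean, and the difference in sgCul3 was 2.52 ± 0.81 (adjusted p = 0.142). Vnn1 in the second table stood at 33.4 and 81.0 in the controls, A then B, and 395 and 204 in sgNrf2 A and B. Both sgNrf2 tumours were above both controls, but the difference was not called (2.42 ± 0.59, adjusted p = 0.0791). The sgKeap1 call was lost without sgKeap1 2 (adjusted p = 0.0639) and that for the mean without sgGFP 2 (adjusted p = 0.0516).

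**Figure D4:**
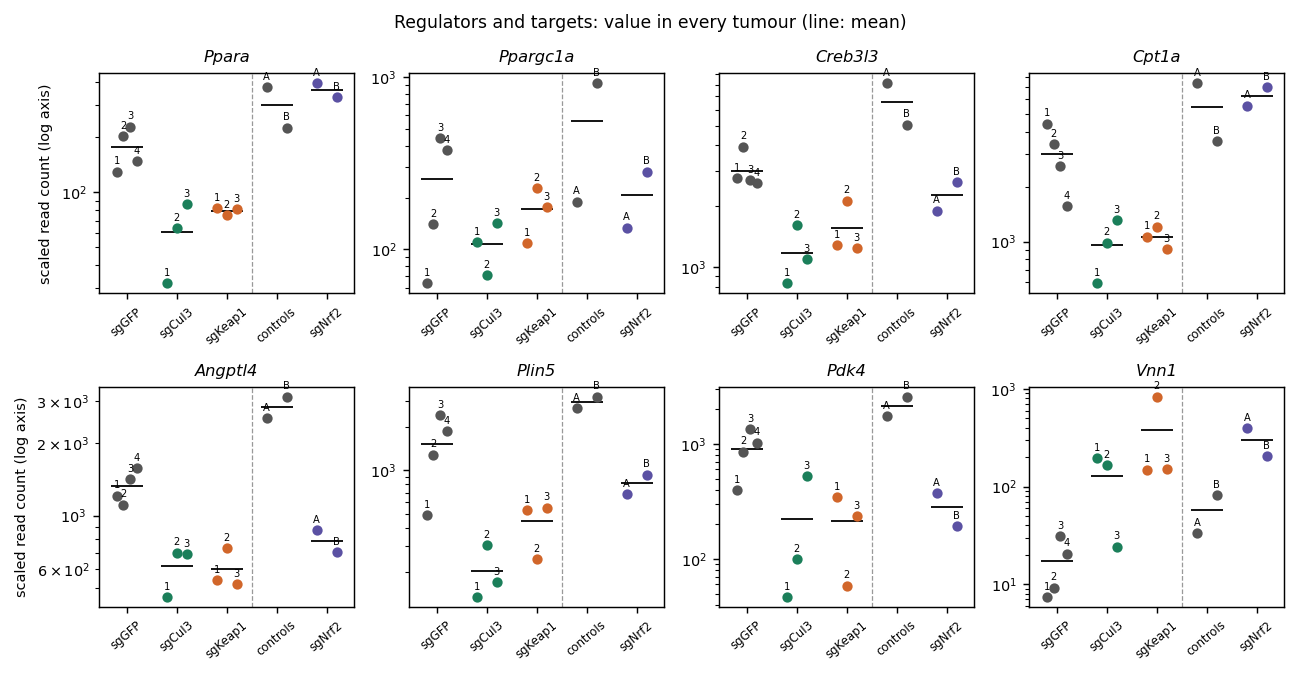
Value of 8 regulators and targets in each tumour (y axis, scaled reads, log axis that differs by panel), by group (x axis), with the tumour's number or letter beside its point and a line at the group mean; the dashed line parts the separately scaled tables. Angptl4, Ppara, Creb3l3 and Cpt1a lie lower in all sgCul3 and sgKeap1 tumours than in any sgGFP tumour, and Vnn1 is above it in all 3 sgKeap1 tumours.

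Of the 20 mitochondrial genes, 1 fell in sgCul3, where 0.851% of all genes did, 3 fell and 1 rose in sgKeap1, against 3.37% and 4.45%, and 3 fell in sgNrf2, against 2.51%. The 1 of 20 that rose in sgKeap1 is near the share of all genes. Their medians were -0.55, -0.18 and -0.38, with 18, 12 and 16 of 20 below 0. In the carnitine shuttle, Cpt1a (chr19:3322334-3385733), the rate-limiting carnitine palmitoyltransferase of the outer membrane, stood at 4417, 3413, 2594 and 1571 in sgGFP 1 to 4, 591, 989 and 1306 in sgCul3 1 to 3 and 1065, 1210.2 and 915 in sgKeap1 1 to 3. All 6 guide tumours were below the lowest sgGFP tumour, although the controls themselves spanned from 1571 to 4417. The fall was -1.61 ± 0.35 (adjusted p = 0.0445) in sgCul3, -1.40 ± 0.35 (adjusted p = 0.0374) in sgKeap1 and -1.51 ± 0.30 (adjusted p = 0.0133) for the mean. The sgCul3 call was lost without any 1 of sgGFP 1, 2 or 3, sgCul3 1 or 2, or sgKeap1 1 or 3 (adjusted p = 0.0636 to 0.197), with a minimum mean of 50, quantile normalization, equal totals or edgeR, and with the 2 groups alone, and the sgKeap1 call without any 1 of sgGFP 1, 2 or 3, or sgKeap1 1, 2 or 3 (adjusted p = 0.0549 to 0.123), whereas that for the mean held in every such fit. Cpt1a in the second table stood at 7350.3 and 3542 in the controls, A then B, and 5552 and 7035 in sgNrf2 A and B. There it overlapped and was not called (0.29 ± 0.39, adjusted p = 0.64). Acsl1, the long-chain acyl-CoA synthetase that feeds the shuttle, was not called, at -1.33 ± 0.49 (adjusted p = 0.198) in sgCul3, -0.88 ± 0.49 (adjusted p = 0.251) in sgKeap1 and -0.63 ± 0.32 (adjusted p = 0.248) in sgNrf2. The carnitine carrier Slc25a20, the inner membrane enzyme Cpt2 and the acetyltransferase Crat were called in no comparison, with changes between -0.66 and 0.40 over the 3 guides.

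The 3 genes of electron transfer from the acyl-CoA dehydrogenases were not called in the same guides. Etfdh (chr3:79603788-79629500), the oxidoreductase that passes electrons to ubiquinone, stood at 1799, 2026, 2472 and 1201 in sgGFP 1 to 4, 397, 919.9 and 934 in sgCul3 1 to 3 and 630.1, 671 and 863 in sgKeap1 1 to 3. Each guide tumour was below each sgGFP tumour. The change was -1.34 ± 0.33 (adjusted p = 0.0351) in sgKeap1, -1.37 ± 0.33 (adjusted p = 0.0588) in sgCul3, not called, and -1.36 ± 0.28 (adjusted p = 0.0157) for the mean. In sgCul3 Etfdh was called with the block, with quantile normalization and with DESeq2. The sgKeap1 call was lost without any 1 of sgGFP 1, 2 or 3, or sgKeap1 1, 2 or 3 (adjusted p = 0.0618 to 0.115) and that for the mean without sgGFP 3 (adjusted p = 0.0616). In sgNrf2 the groups overlapped, at 4509 and 3277 in the controls, A then B, and 2768 and 3337 in sgNrf2 A and B, and the difference was -0.34 ± 0.24 (adjusted p = 0.379).

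Etfb (chr7:43444083-43457800), the beta subunit of the flavoprotein, stood at 4289 and 5671 in the controls, A then B, and 1018 and 1427 in sgNrf2 A and B, with no overlap. That fall was -2.03 ± 0.26 (adjusted p = 0.0381), and the call was lost without any 1 of control B, or sgNrf2 A or B (adjusted p = 0.0518 to 0.148). The first table held 974, 1942, 1429.5 and 3788 in sgGFP 1 to 4, 2027, 2865 and 1022 in sgCul3 1 to 3 and 2639.7, 8208 and 3293 in sgKeap1 1 to 3. There the groups overlapped, sgKeap1 tumour 2 stood highest, and the differences were 0.02 ± 0.52 (adjusted p = 0.992) in sgCul3 and 1.21 ± 0.52 (adjusted p = 0.151) in sgKeap1. Its partner Etfa was called in no comparison, with -0.06 ± 0.46 in sgCul3, 0.86 ± 0.46 in sgKeap1 and -0.85 ± 0.28 in sgNrf2. Of the 50-base windows of the Etfb transcripts, 44.8% also occur in another gene, mostly the predicted gene Gm45233. Reads that fit both may have been left out of the Etfb counts.

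Of the 4 acyl-CoA dehydrogenases, only Acadl, for long chains, was called in the limma fit of all libraries without the block. DESeq2 also called Acadm in sgCul3 and Acads in sgKeap1 and for the mean. Without sgGFP 4, limma called Acads in sgKeap1. Acadl (chr1:66830839-66863277) stood at 4869 and 6028 in the controls, A then B, and 1793 and 2354 in sgNrf2 A and B. Both sgNrf2 tumours were below both controls, a fall of -1.40 ± 0.23 (adjusted p = 0.0473) that was lost without any 1 of control B, or sgNrf2 A or B (adjusted p = 0.0579 to 0.296) and with edgeR. The first table held 1999, 2515, 1907 and 2170.3 in sgGFP 1 to 4, 952, 2269 and 1314 in sgCul3 1 to 3 and 1642, 4563 and 1900.4 in sgKeap1 1 to 3. The groups overlapped there, and the differences were -0.59 ± 0.37 (adjusted p = 0.442) in sgCul3 and 0.18 ± 0.37 (adjusted p = 0.771) in sgKeap1. Acadvl, Acadm and Acads, for very long, medium and short chains, had differences between -0.89 and 0.05 in the 3 guides.

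Among the enzymes of the later steps, Acaa2, the thiolase, stood at 5200.4, 8820.1, 9271 and 9348 in sgGFP 1 to 4, 3022, 5869 and 3668 in sgCul3 1 to 3 and 3720.1, 3671 and 3144 in sgKeap1 1 to 3. The sgKeap1 tumours were all below the lowest sgGFP tumour, and sgCul3 tumour 2 was within the sgGFP range. The change was -1.18 ± 0.29 (adjusted p = 0.034) in sgKeap1, -0.98 ± 0.29 (adjusted p = 0.111) in sgCul3 and -1.08 ± 0.24 (adjusted p = 0.0236) for the mean. In the second table Acaa2 stood at 18668 and 16920 in the controls, A then B, and 7226 and 8840.4 in sgNrf2 A and B, apart but just short of the threshold (-1.15 ± 0.22, adjusted p = 0.0555). Its sgKeap1 call was lost without any 1 of sgGFP 2, 3 or 4, or sgKeap1 2 or 3 (adjusted p = 0.0602 to 0.119) and that for the mean without any 1 of sgGFP 2, 3 or 4, sgCul3 1, or sgKeap1 3 (adjusted p = 0.0576 to 0.084). Hadha and Hadhb, the subunits of the trifunctional protein, and Hadh and Echs1 were called in no comparison, with differences between -0.96 and 0.25 in the 3 guides.

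Eci1 (chr17:24426641-24439348), an isomerase needed for unsaturated fatty acids, was the mitochondrial member that rose. It stood at 1317, 1505, 1521 and 1721 in sgGFP 1 to 4, 1576, 2387 and 1396 in sgCul3 1 to 3 and 2297, 3278 and 3032 in sgKeap1 1 to 3. The sgKeap1 tumours were all above the highest sgGFP tumour and sgCul3 tumours overlapped it. The change was 0.91 ± 0.22 (adjusted p = 0.0352) in sgKeap1 and 0.20 ± 0.22 (adjusted p = 0.693) in sgCul3. The second table held Eci1 at 3388 and 3690.5 in the controls, A then B, and 2465 and 2982 in sgNrf2 A and B. Here both sgNrf2 tumours were below both controls, a difference of -0.38 ± 0.19 (adjusted p = 0.244) that was not called. The sgKeap1 call was lost without any 1 of sgGFP 1, 2 or 3, sgCul3 1, or sgKeap1 2 or 3 (adjusted p = 0.0501 to 0.125) and with libraries scaled to equal totals. Decr1, the reductase of the same branch, was called in no comparison.

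Of the 12 peroxisomal genes, 0 were called in sgCul3, 1 fell in sgKeap1 and 1 fell in sgNrf2, and 0 rose in any of the 3. Against shares of all genes between 0.851% and 4.45%, these counts do not set the peroxisomal genes apart. Their medians were -0.60 in sgCul3, 0.06 in sgKeap1 and -0.29 in sgNrf2. Acad11 (chr9:104063377-104127725), an acyl-CoA dehydrogenase grouped here with the peroxisomal enzymes, stood at 869, 854, 1198 and 798 in sgGFP 1 to 4, 219.7, 474 and 539.5 in sgCul3 1 to 3 and 489, 359 and 293 in sgKeap1 1 to 3. All guide tumours were below all sgGFP tumours. The change was -1.30 ± 0.31 (adjusted p = 0.0323) in sgKeap1, -1.26 ± 0.31 (adjusted p = 0.0662) in sgCul3 and -1.28 ± 0.26 (adjusted p = 0.016) for the mean. In sgNrf2 the groups overlapped, with values of 1677 and 1748 in the controls, A then B, and 1606 and 1819.8 in sgNrf2 A and B and a difference of -0.00 ± 0.18 (adjusted p = 0.996). The sgKeap1 call was lost without any 1 of sgGFP 1, 2 or 3, or sgKeap1 2 or 3 (adjusted p = 0.0548 to 0.12) and that for the mean without sgGFP 3 (adjusted p = 0.0635).

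Eci2 (chr13:34977748-35027096), the peroxisomal counterpart of Eci1, stood at 874, 1396, 1634 and 1310.2 in sgGFP 1 to 4, 467, 861 and 639.6 in sgCul3 1 to 3 and 814, 837 and 662 in sgKeap1 1 to 3. No guide tumour reached the lowest sgGFP tumour, at 874. The change was -0.997 ± 0.26 (adjusted p = 0.0767) in sgCul3 and -0.73 ± 0.26 (adjusted p = 0.0975) in sgKeap1, neither called, and -0.86 ± 0.22 (adjusted p = 0.0384) for the mean, called. Eci2 in the second table stood at 3132 and 3299 in the controls, A then B, and 1263 and 1051 in sgNrf2 A and B, apart, with a fall of -1.48 ± 0.19 (adjusted p = 0.0376). The call for the mean was lost without any 1 of sgGFP 2, 3 or 4, sgCul3 1, or sgKeap1 2 or 3 (adjusted p = 0.0541 to 0.13) and that in sgNrf2 without any 1 of sgNrf2 A or B (adjusted p = 0.167 to 0.198).

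Ehhadh (chr16:21761287-21787807), the bifunctional enzyme and a classical PPAR alpha target, was called in no comparison. It stood at 1072, 1862, 798 and 607 in sgGFP 1 to 4, 222, 748 and 644 in sgCul3 1 to 3 and 741, 2066 and 1036 in sgKeap1 1 to 3. The groups overlapped, with sgCul3 tumour 1 lowest and sgKeap1 tumour 2 highest. In the other table it stood at 2981 and 1431 in the controls, A then B, and 1027 and 952 in sgNrf2 A and B, with both sgNrf2 tumours lower (-1.06 ± 0.38, adjusted p = 0.144). Its difference was -1.06 ± 0.50 (adjusted p = 0.306) in sgCul3 and 0.23 ± 0.50 (adjusted p = 0.784) in sgKeap1. The other peroxisomal genes, which import acyl-CoA (Abcd2, Abcd3), carry out the spiral (Hsd17b4, Acaa1a, Acaa1b, Decr2) or release its products (Acot3, Acot4, Crot), had differences between -1.60, for Acot3 in sgNrf2, and 1.37, for Crot in sgKeap1. Acaa1a and Acaa1b share sequence: 12.9% and 30.5% of their 50-base windows occur in another gene, so reads of this pair are uncertain.

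Bdh1, which interconverts the ketone bodies acetoacetate and beta-hydroxybutyrate, was the 1 ketone member and was not called. Its differences were -1.10 ± 0.42 (adjusted p = 0.217) in sgCul3, with the groups apart, -0.32 ± 0.42 (adjusted p = 0.64) in sgKeap1 and 0.06 ± 0.27 (adjusted p = 0.896) in sgNrf2.

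**Figure D5:**
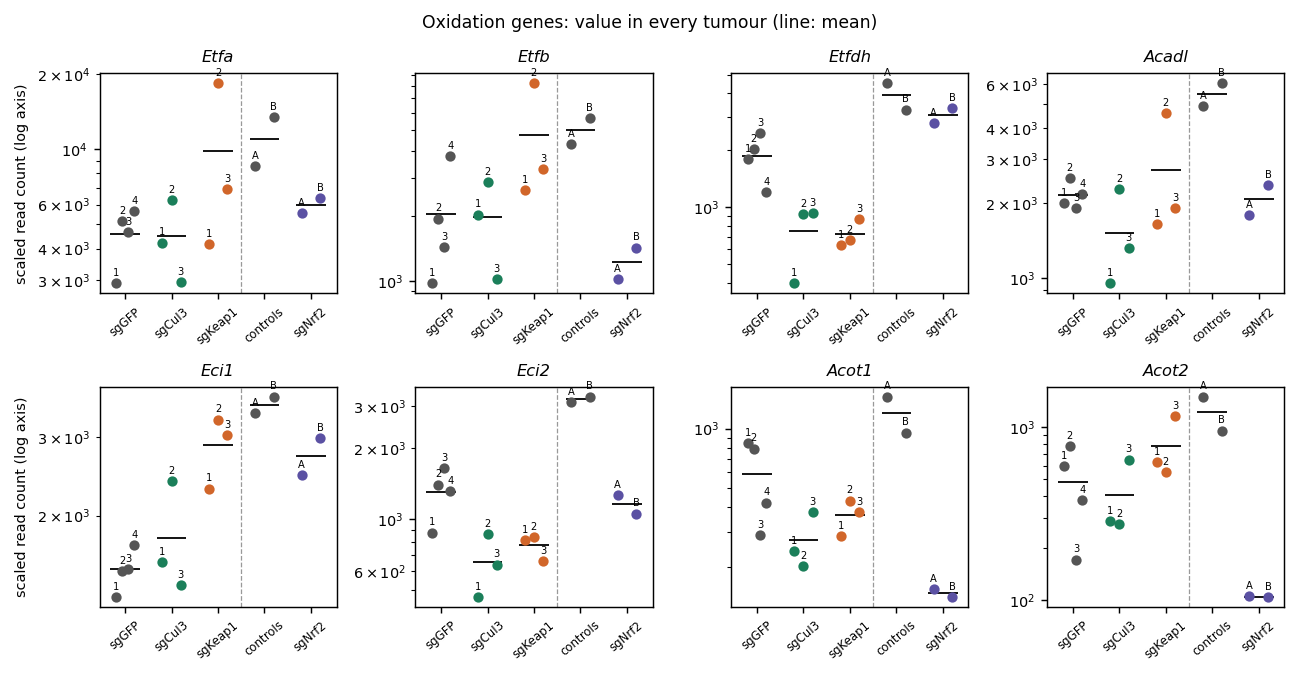
Value of 8 genes of oxidation in each tumour (y axis, scaled reads, log axis that differs by panel), by group (x axis), with tumour numbers or letters and a line at the group mean; the dashed line parts the separately scaled tables. In the second table Acot1 and Acot2 are lowest in both sgNrf2 tumours, and in the first sgKeap1 tumour 2 stands highest for Etfa, Etfb and Acadl.

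The largest falls of any member were those of Acot2 and Acot1 in sgNrf2, thioesterases that release free fatty acids from acyl-CoA in mitochondria and the cytosol. Acot2 (chr12:83987861-83993873) stood at 1506 and 958 in the controls, A then B, and 105 and 105 in sgNrf2 A and B. Acot1 (chr12:84009490-84018371) stood at 1453 and 954 in the controls, A then B, and 153 and 141 in sgNrf2 A and B. Both sgNrf2 tumours lay far below both controls for each gene, with falls of -3.50 ± 0.31 (adjusted p = 0.0237) for Acot2 and -2.996 ± 0.29 (adjusted p = 0.0293) for Acot1. The Acot2 call was lost without sgNrf2 B (adjusted p = 0.0614) and the Acot1 call without any 1 of sgNrf2 A or B (adjusted p = 0.0597 to 0.0775).

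In the first table Acot2 stood at 598, 782, 172 and 380.4 in sgGFP 1 to 4, 287, 275 and 651 in sgCul3 1 to 3 and 631, 549 and 1164 in sgKeap1 1 to 3. Those groups overlap, with differences of -0.17 ± 0.50 (adjusted p = 0.902) in sgCul3 and 0.82 ± 0.50 (adjusted p = 0.296) in sgKeap1. Acot1 stood at 842, 792, 288 and 422 in sgGFP 1 to 4, 240.4, 201.2 and 376 in sgCul3 1 to 3 and 284, 432 and 377 in sgKeap1 1 to 3, also with overlap, and differed by -1.01 ± 0.38 (adjusted p = 0.202) and -0.57 ± 0.38 (adjusted p = 0.332). So neither was called outside sgNrf2, and the difference between sgNrf2 and the other guides was not tested, since the tables were scaled separately.

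Acot1 and Acot2 lie in a cluster of thioesterase genes on the plus strand of chromosome 12, described here after their values were seen. In order along the chromosome, the changes in sgNrf2 were -3.50 for Acot2, -2.996 for Acot1, -0.78 for Acot4, -1.60 for Acot3 and -0.29 for Acot6, of which the first pair was called. Acot5, between Acot3 and Acot6, was listed at 27.0 and 248 in its controls, and in sgNrf2 at 0 and 0.874. Of the genes beside the cluster, 0 were called in sgNrf2, with differences of -0.04 for Numb and -0.45 for 2410016O06Rik before it, and -0.64 for Dnal1, 0.14 for Elmsan1 and -1.51 for the pseudogene Gm5436 after it. Acot2 and Acot1 share sequence, in 27.7% and 19.2% of their 50-base windows with another gene, mostly each other. Reads that fit both may have been left out of the counts of each.

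The promoters of this pair are shown because they are neighbours that fell together, and those of Acot3 and Ehhadh because they are the members whose promoter held TGACNNNGC followed by A, the core of the antioxidant response element that NRF2 binds, with 1 more base. Each runs from 250 bases before the start of transcription to 50 after, from RefSeq on GRCm38.p6, with the motif in capitals, read on either strand. For Acot1 (chr12:84009252-84009551, plus strand) and Acot2 (chr12:83987611-83987910, plus strand) the capitals mark the CCAAT box, forward in Acot1 and as its reverse complement in Acot2. For Acot3 (chr12:84051894-84052193, plus strand) and Ehhadh (chr16:21787785-21788084, minus strand) they mark TGACNNNGC with the A after it, as the reverse complement in Acot3 and forward in Ehhadh.
Acot1: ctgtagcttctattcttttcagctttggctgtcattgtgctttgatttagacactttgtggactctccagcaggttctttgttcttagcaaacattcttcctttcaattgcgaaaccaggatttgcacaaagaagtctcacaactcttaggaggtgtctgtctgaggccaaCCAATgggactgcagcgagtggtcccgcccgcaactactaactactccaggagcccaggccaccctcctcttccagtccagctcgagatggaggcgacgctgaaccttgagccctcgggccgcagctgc
Acot2: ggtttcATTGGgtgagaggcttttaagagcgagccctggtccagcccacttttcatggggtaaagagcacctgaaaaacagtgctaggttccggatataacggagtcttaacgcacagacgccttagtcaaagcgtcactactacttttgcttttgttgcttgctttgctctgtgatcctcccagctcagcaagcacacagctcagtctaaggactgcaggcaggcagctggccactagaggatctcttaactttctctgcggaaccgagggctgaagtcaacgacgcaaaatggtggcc
Acot3: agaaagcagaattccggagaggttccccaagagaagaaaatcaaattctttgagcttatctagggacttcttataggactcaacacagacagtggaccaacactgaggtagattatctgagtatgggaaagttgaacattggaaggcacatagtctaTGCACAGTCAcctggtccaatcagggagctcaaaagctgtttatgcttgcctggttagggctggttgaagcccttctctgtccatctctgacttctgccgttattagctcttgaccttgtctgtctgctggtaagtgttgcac
Ehhadh: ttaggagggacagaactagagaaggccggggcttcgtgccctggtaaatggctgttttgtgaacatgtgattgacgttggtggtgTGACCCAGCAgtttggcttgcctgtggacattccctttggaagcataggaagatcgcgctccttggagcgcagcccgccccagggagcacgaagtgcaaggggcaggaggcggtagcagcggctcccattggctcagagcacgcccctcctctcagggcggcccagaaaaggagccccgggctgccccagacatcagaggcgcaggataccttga

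RefSeq promoter entries matched 36 of the 43 members, with 42 promoters in all. The PPAR element DR1, AGGTCA repeated with 1 base between, was found on either strand in 0 of these 42 and in 0.0396% of all 32851 promoters of this length, and its looser form, AGGNCA repeated likewise, in 0 and 0.381%. TGACNNNGC was in 7.14% of the members' promoters and 12.4% of all, and the form followed by A, which overlaps it, in 7.14% and 3.04%, here 3 promoters, a pair of overlapping ones of Acot3 and that of Ehhadh. CCAAT was in 50% of the members' promoters and 37.4% of all, and CACGTG, which MYC binds, in 7.14% and 7.15%. A match is a description and not a bound site, and these letters may lie outside the windows searched.

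The rest of the pathway was read from 78 further genes, of which 75 were tested in the first table and 76 in the second. In sgCul3, where 0.851% of all genes were called lower and 1.35% higher, 3 of 75 fell and 0 rose: Slc25a42, a mitochondrial carrier of coenzyme A (-0.88 ± 0.19, adjusted p = 0.0433), Ucp2, an uncoupling protein (-1.53 ± 0.34, adjusted p = 0.0462), and Acacb, the acetyl-CoA carboxylase whose product inhibits CPT1 (-2.35 ± 0.54, adjusted p = 0.0491). In sgKeap1, 4 of 75 fell and 3 rose, near the shares of all genes, 3.37% and 4.45%. Those with the smallest adjusted p were Slc25a42 (-1.30 ± 0.19, adjusted p = 0.00302), the muscle isoform Cpt1b (-3.33 ± 0.70, adjusted p = 0.0191, listed at 0 in sgKeap1 tumours 2 and 3) and Rxra, the DNA-binding partner of PPAR alpha (-0.96 ± 0.25, adjusted p = 0.04), which fell, and the receptor Ppard (1.95 ± 0.40, adjusted p = 0.0163), which rose. For the mean of both guides, 6 of 75 fell and 1 rose, against 3.19% and 4.37% of all genes, led by Slc25a42 (-1.09 ± 0.16, adjusted p = 0.00316), Cpt1b (-2.83 ± 0.59, adjusted p = 0.0174) and Ucp2 (-1.33 ± 0.29, adjusted p = 0.0198), which fell, and Ppard (1.65 ± 0.34, adjusted p = 0.015), which rose. In sgNrf2, 4 of 76 fell and 0 rose, against 2.51% and 1.9%: Hilpda, an inhibitor of lipolysis on droplets (-3.18 ± 0.28, adjusted p = 0.0237), Acot13, a further thioesterase (-1.54 ± 0.24, adjusted p = 0.0449), Mlycd, malonyl-CoA decarboxylase (-1.27 ± 0.20, adjusted p = 0.0466), and Cyp4a14, an omega-hydroxylase induced by PPAR alpha (-6.76 ± 1.14, adjusted p = 0.0474).

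Compared directly, sgKeap1 and sgCul3 differed in 0 of 43 members called, against 0.0307% of all genes higher and 0.0307% lower. At an unadjusted p under 0.05, 4 members were higher in sgKeap1 and 0 lower, and edgeR and DESeq2 each called 0. In 35 of 43 the sgKeap1 mean was above the sgCul3 mean, with a median of 0.45 beside 0.00 over all genes, and the groups were apart for 2 members higher and 0 lower, against 7.52% and 8.24%. Among members with a mean of at least 100 scaled reads, the largest differences were 1.49 ± 0.86 for Vnn1, 1.29 ± 0.53 for Ehhadh and 1.20 ± 0.55 for Etfb. A failure to pass the threshold does not show that the guides act alike. The median was 0.21 without sgKeap1 tumour 2 and 0.27 without sgCul3 tumour 1.

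Single tumours stood apart in these genes. In sgKeap1 tumour 2, 32 of 43 members were at the highest value of the group, where 37.1% of all genes were, and in sgCul3 tumour 1, 29 were at the lowest, where 29.7% of all genes were. The sgKeap1 tumour also had the highest sum of the 15 hepatocyte markers, at 1309376 scaled reads. In the other 9 libraries of the first table the sum lay between 199558 and 483059.8. Alb, albumin, made up most of it in the sgKeap1 tumour, at 1046672. Afp, at 20277, and Hnf4a, at 2959, lay there within the range of the other 9 libraries. Without this tumour the members' median in sgKeap1 was -0.40, with 11 of 43 above 0 where there were 16. The part of these markers in the members' values was not tested.

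Markers of other cells also moved with the guides. Erythroid transcripts, 11 of 12 markers measured, summed to between 5088 and 15141 in sgGFP, 422 and 11327 in sgCul3, and 1971 and 2175 in sgKeap1, where Rhag was at 0. In sgNrf2 the sum was 966 and 1990.3, and in its controls 17568 and 19460.0. Cholangiocyte transcripts, 8 of 8 measured, summed to between 93.1 and 505 in sgGFP, 1519.85 and 1775 in sgCul3, 779 and 2003 in sgKeap1, 195 and 846 in the sgNrf2 controls, and 799.8 and 5529 in sgNrf2. Endothelial transcripts, 9 of 9, summed to between 834 and 1256 in sgGFP and 457 and 793 in sgCul3, which lay lower, and 661 and 1664 in sgKeap1, and they were higher in sgNrf2, at 2985 and 3176 against 1554 and 1649. Stellate and fibroblast transcripts, 9 of 9, overlapped in the first table and stood at 5658 and 3971 in sgNrf2 against 2588 and 3027 in the controls. Lymphocyte transcripts likewise overlapped in the first table, with 10 of 10, and in the second, with 9 of 10, stood at 548 and 767 in sgNrf2 against 474 and 235 in the controls. The sum of 11 macrophage markers overlapped in every comparison, but its Kupffer cell marker Clec4f read 1.62 and 0.874 in sgNrf2 against 60.4 and 167 in the controls. In the first table Clec4f read 591 in sgCul3 tumour 2 and 879.7 in sgKeap1 tumour 2, against 19.9 to 95.8 in sgGFP. Neutrophil transcripts, 12 of 12, summed to between 12839.6 and 15728 in the controls and 2790.1 and 6589 in sgNrf2, while they overlapped in the first table. Of 7 adipocyte markers 2 were measured, and they summed to between 682 and 1428 in sgGFP, 279 and 712 in sgCul3, 753 and 1017 in sgKeap1, 2937 and 3051 in the controls and 1533 and 1604 in sgNrf2. Fabp4 made up nearly all of the adipocyte sum in every library (974.9 of 977.6 in sgGFP tumour 1). That sum therefore describes this gene and does not show a shift of adipocytes. The part of any of these cells in the members' values was not tested.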

How the data were processed

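RNA of 14 mouse liver tumour libraries was sequenced from total RNA with a TruSeq kit, per the labels. The authors deposited 2 tables whose values are a signal: per the submitters' processing notes and the deposited tables, HTSeq read counts scaled by DESeq, with Picard and mm10 also named and versions, aligner and annotation release not given in the sources used here. In the first, 1 had been added to every entry. All values (100%) were whole reads to within 0.1 once divided by 1 step per library, and these recovered reads were used for edgeR 4.0.16 and DESeq2 1.42.0. Its header states 16820 genes and it holds 16821. In the second table, 4 entries name no gene. They hold 52.4% to 66.8% of each library's total over genes and these entries together, and were left out. Gene coordinates come from GENCODE M21, on GRCm38.

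The test was that of limma 3.58.1 (R 4.3.3), two-sided and with a trend of variance on mean, for log2(value + 1) of each gene whose deposited values averaged 10 or more, adjusted over all such genes. Fold changes are on that log2 scale, which understates those of low genes. Groups of a table shared 1 estimate of the spread. The tables were scaled separately and never tested against each other. Intervals, SEs and adjusted p are those of limma unless another tool is named, and the code was tested on simulated data. Same-numbered sgGFP and sgCul3 tumours deviated together (r across genes of 0.164, 0.175 and 0.314), where unlike numbers gave -0.297 to 0.0770. The number was therefore taken to pair them, from the same values that the block fit uses. The labels do not say what it stands for. Between sgCul3 and sgKeap1, like numbers gave 0.239, 0.518 and 0.0980 and unlike numbers -0.436 to 0.264, so the pairing is uncertain.

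Members and lists were chosen with earlier results of these data known. Members called in any comparison, the 3 largest changes per comparison with a mean of at least 100, and the regulators have a value per library, and other pathway genes called are named up to 4 per comparison by smallest adjusted p. Alternatives were a pseudocount of 5, the added 1 removed, no filter or a minimum average of 50, equal totals, quantile normalization, edgeR, DESeq2, the tumour number as a block, 2 groups alone and each library left out.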

Additional observations from a re-analysis of the deposited data

Results flagged for a closer look

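In 4 of the 43 members, 1 of the 4 sgGFP tumours lay far from the other 3, by a gap above Dixon's 95% limit for 4 values; chance alone gives about 1 in 20 such groups. Acaa2 was low in sgGFP tumour 1, at 5200.4 scaled reads. In sgGFP tumour 2, Crot stood high at 2515.5, Bdh1 at 2555 and Creb3l3 at 3948. Eci1 was higher in every sgKeap1 tumour than in any sgGFP tumour (log2 fold change 0.91) and lower in both sgNrf2 tumours than in both controls (-0.38); the difference between these guides was not tested.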

How the results depend on the processing

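Of 3908 values of single members under the alternatives, 3593 kept their direction and side of the threshold, 122 changed sign while called in neither fit, 118 lost their call, 75 gained one and 0 reversed while called. DESeq2 called 1 member higher and 10 lower in sgCul3, 5 and 11 in sgKeap1, 3 higher for the mean of both, and 1 and 14 in sgNrf2. In sgCul3, 3 were lower under equal totals, 2 with edgeR and 3 with the 2 groups alone. Equal totals left 1 higher in sgKeap1 and gave the members a median of -0.10 in sgNrf2.

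With the tumour number as a block, 6 members were lower and 0 higher in sgCul3, with 2 calls gained and 1 lost there; 6 were higher and 9 lower in sgKeap1, and 2 higher and 13 lower for the mean. In sgKeap1 against sgCul3 the block gave 0 of either, and in sgNrf2 8 lower. The numbers are not shown to pair sgGFP with sgKeap1 tumours (r of 0.199, 0.0425 and -0.0941) or controls with sgNrf2 (r of -0.00064). No guide tumour carries number 4, so the block takes sgGFP tumour 4 out.

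Leaving out 1 library, members lower ranged from 0 to 5 in sgCul3, 0 to 7 in sgKeap1, 3 to 11 for the mean and 0 to 12 in sgNrf2, and members higher from 0 to 1, 1 to 5, 0 to 2 and 0 to 2. With 2 to 4 libraries a group, and Vnn1 and Fgf21 at few reads in sgGFP, a difference that was not called may be absent or may have been missed. Calls over all genes in sgCul3 were 176 higher and 111 lower with limma, 169 and 77 with edgeR and 479 and 447 with DESeq2; in sgKeap1 581 and 439, 610 and 349, and 1181 and 962; for the mean 570 and 416, 543 and 474, and 1105 and 947; in sgNrf2 266 and 351, 181 and 284, and 1191 and 1460.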
